A study of Mus musculus with 6 samples.

Results

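Basal cells are the stem cells of the tracheal epithelium, and 9 genes that mark them were followed here in single cells: the keratins Krt5, Krt14 and Krt15, the transcription factors Trp63 and Snai2, the surface proteins Ngfr, Dlk2 and Aqp3, and Dapl1. Members were chosen by symbol, and all 9 were found among the 20483 genes of the count table. The cells came from tracheal epithelium of 12-week-old C57BL/6 mice, grown as primary cultures at an air-liquid interface (ALI), where basal cells divide and then give rise to secretory and multiciliated cells. The study compared 3 WT/WT mice (WT1, WT2 and WT3) with 3 MIS/MIS mice (MT1301, MT1306 and MT1383), which carry on both copies of Dnaaf5 a missense allele made by CRISPR-Cas9 editing to match a variant of patients with primary ciliary dyskinesia. Dnaaf5 encodes a cytoplasmic factor that assembles the dynein motors of motile cilia, and the allele is present in every cell of the animal, so the comparison in basal cells asks whether cells that bear no motile cilia differ with the genotype. Each library is 1 mouse, its cells had gone through dissociation, culture and differentiation, and the UMI counts do not read the edited codon, so the genotype labels were not checked from it.

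In pseudostratified airway epithelium, basal cells sit on the basement membrane, held there by hemidesmosomes to which their keratin filaments attach. Keratins assemble in pairs of a type II and a type I chain: Krt5 is type II, and Krt14 and Krt15 are type I. Trp63 encodes p63, the transcription factor without which stratified and basal epithelial cells do not form, and Snai2 encodes Slug, a zinc finger repressor that binds E-boxes. Ngfr is the low-affinity nerve growth factor receptor used to sort basal cells, Dlk2 is a membrane protein related to Delta, Aqp3 is a water and glycerol channel of the cell membrane, and Dapl1 encodes a small protein related to death-associated protein.

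On the mouse genome GRCm38 (mm10), with GENCODE M21 gene models, Krt5 lies on chromosome 15 at 101707070-101712898 on the minus strand, with 9 exons. Krt15 (100131758-100135928) and Krt14 (100203162-100207548) lie on the minus strand of chromosome 11 with 67233 bases between them and 8 exons each, in the type I keratin cluster that also holds Krt16 and Krt17. Ngfr is on the same chromosome at 95568818-95587735, outside that cluster. Trp63 (25683763-25892102) and Snai2 (14705852-14709385) lie on chromosome 16, Dapl1 on chromosome 2 at 59484653-59505020, Aqp3 on chromosome 4 at 41092722-41098183, and Dlk2 on chromosome 17 at 46297421-46303271. The 250 bases before the RefSeq start site are shown for 3 members that parted in the cells that had left the basal state. Krt5 was low there outside Secretory2. Aqp3 kept more of its level than Krt5 in secretory cells and fell further in multiciliated cells. Dapl1 stood out in Multiciliated2 among multiciliated clusters. Each sequence is written 5′ to 3′ on the strand of the gene, and capitals mark the letters of a searched motif.
Krt5 (chr15:101712906-101713155, minus strand): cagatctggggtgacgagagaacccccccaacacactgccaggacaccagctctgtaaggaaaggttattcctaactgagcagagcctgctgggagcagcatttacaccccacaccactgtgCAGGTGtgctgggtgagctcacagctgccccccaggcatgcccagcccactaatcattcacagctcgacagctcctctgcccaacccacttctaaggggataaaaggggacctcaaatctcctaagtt
Aqp3 (chr4:41098184-41098433, minus strand): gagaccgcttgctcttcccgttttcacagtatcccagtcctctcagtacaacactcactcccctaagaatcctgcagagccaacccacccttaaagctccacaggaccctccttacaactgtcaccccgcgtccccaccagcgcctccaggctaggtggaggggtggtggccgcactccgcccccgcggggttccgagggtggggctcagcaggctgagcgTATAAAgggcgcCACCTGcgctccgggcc
Dapl1 (chr2:59484403-59484652, plus strand): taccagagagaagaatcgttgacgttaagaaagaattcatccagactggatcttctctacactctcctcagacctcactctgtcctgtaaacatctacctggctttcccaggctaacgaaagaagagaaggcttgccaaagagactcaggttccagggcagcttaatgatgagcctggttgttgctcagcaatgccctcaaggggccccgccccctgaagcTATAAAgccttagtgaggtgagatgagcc
The motifs were looked for on both strands in the windows of 250 bases before to 50 after the start: TATAAA, the TATA box; TGANTCA, a site of AP-1 factors; GCCNNNGGC, a site of AP-2 factors; and CAGGTG, an E-box. The RefSeq table held windows for 6 of the 9 members. TATAAA began 29 bases before the start in Aqp3 and also 29 bases before it in Dapl1, and 13.6% of the 32851 windows of all genes held it. CAGGTG was found in Krt5, where it began 128 bases before the start, and on the other strand in Aqp3, where its reverse complement began 17 bases before the start, against 20.2% of all windows. GCCNNNGGC occurred in 1 of the windows of Dlk2 (16.6% of all windows), and TGANTCA in none of the members' windows (7.81% of all). No searched motif was found in the windows of Ngfr or Krt14, and that of Krt14 lies inside its GENCODE gene span because the annotations place its start differently. These are matches of letters, not binding sites.

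Droplet libraries of 23871 cells were read as unique molecular identifiers (UMIs), each counting 1 captured RNA molecule at its 3′ end. The level of a gene is given as CPM, its UMIs per 1000000 UMIs of the same cells, and needs no correction for gene length. The authors' annotation puts 11126 cells in 8 basal clusters, 7731 in 2 secretory clusters and 4823 in 4 multiciliated clusters, beside 163 neuroendocrine cells and 28 ionocytes. The median UMI count of a basal cell ran from 18435 in MT1383 to 31785 in MT1306. To compare shares of cells with a UMI at 1 depth, each cell was thinned to 5000 UMIs, which no cell fell short of. A pair of libraries stood apart in the makeup of their basal cells: WT1 held 1048 of the 1365 Basal4 cells, 57.1% of its own basal cells, and MT1383 had 45.7% of its basal cells in Basal2 and 25.7% in Basal5. Among 23804 distinct cell barcodes, 67 occurred in more than 1 library. The authors' stated limit of 7500 genes per cell was passed by 655 cells of the deposited table.

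The clusters were made from these genes among others, so levels over clusters are a description and carry no test. Cluster levels are means over mice with at least 20 cells in the cluster. The members did not mark the 8 clusters labelled basal equally. Trp63 was at 24.3 to 113 CPM in Basal1 to Basal6, against 12.1 CPM in Secretory2, 1.66 CPM in Secretory1 and 1.02 CPM in Multiciliated3. Basal1 kept Krt14 and Krt5. Its Trp63 was uneven between mice, at 24.3 ± 18.5 CPM (SD, 13.0 to 61.6 over 6 mice), and was above that of Basal7 in 3 of 5 mice. In Basal1, Krt15, Aqp3, Dapl1 and Dlk2 (1956, 167, 32.1 and 2.58 CPM) were below their means in Secretory2 (3076, 206, 53.2 and 2.93 CPM). A thinned Basal1 cell held UMIs of 2.06 members on average, beside 1.90 in Basal8 and 1.96 in Secretory2. Basal7 kept Krt14 but had Trp63 at 16.7 CPM and Aqp3 at 17.9 CPM, and 37.1% of its thinned cells held no UMI of any member. Basal8 kept Krt15 and Aqp3, while Trp63 was at 3.79, Snai2 at 1.27 and Dlk2 at 0.726 CPM, all below their levels in Secretory2 (12.1, 3.21 and 2.93 CPM). At the other end, a thinned Basal3 cell held UMIs of 4.63 members on average, and 53.8% of Basal3 cells held 5 or more.

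**Figure D1:**
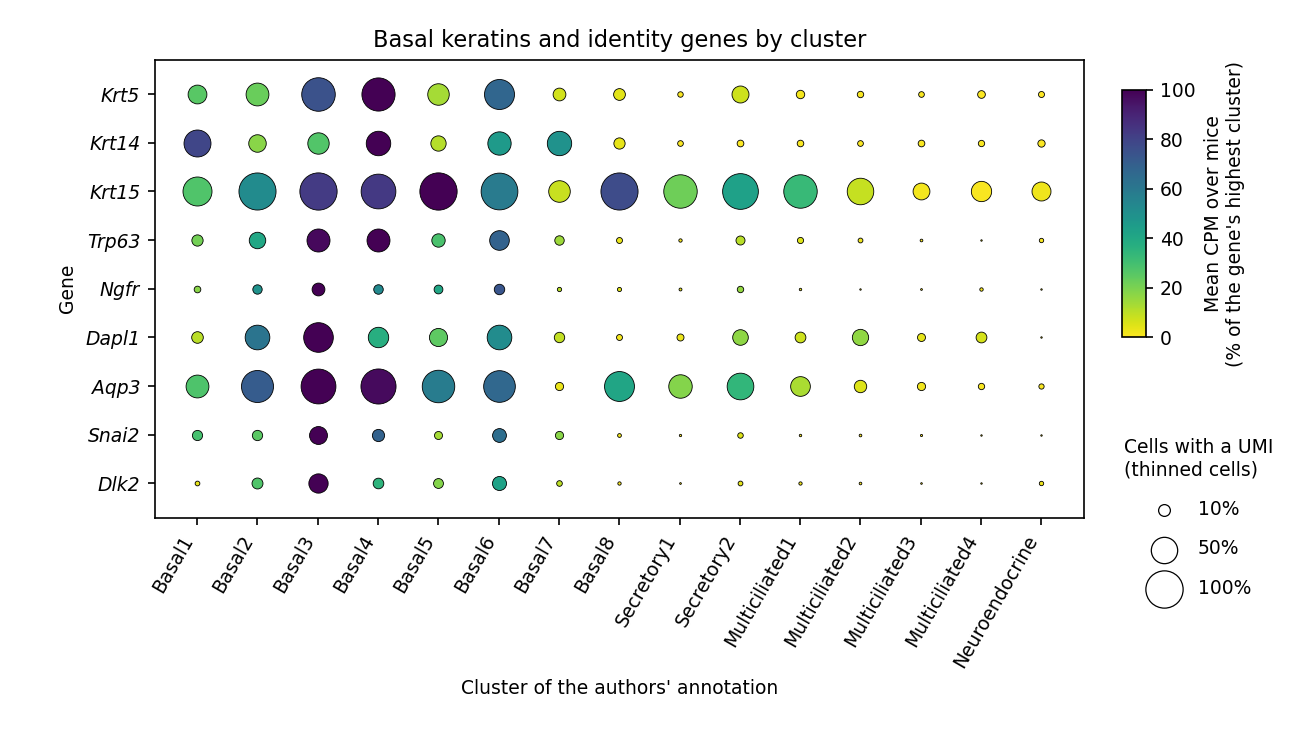
Each circle is 1 gene in 1 cluster of the authors' annotation; its area gives the share of cells with a UMI after thinning to 5000 UMIs, and its colour the mean CPM over mice as a percent of the gene's highest cluster. Krt15 and Aqp3 spread into secretory and Multiciliated1 cells. Krt14 is darkest in Basal4 and Basal1, followed by Basal7 and Basal6 at close levels. Dapl1 is higher in Secretory2 and Multiciliated2 than in the other non-basal clusters. Neuroendocrine rests on 1 mouse, and ionocytes (28 cells) are not drawn.

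Krt5 was concentrated in Basal3, Basal4 and Basal6. Its mean level was 1202 ± 325 CPM in Basal4 (SD, n = 4 mice), 899 ± 181 in Basal3 (n = 6) and 808 ± 155 in Basal6 (n = 6). These 3 neighbours in the order did not part cleanly, since Basal4 was above Basal3 in 3 of 4 mice and Basal3 above Basal6 in 3 of 6. All 6 mice had more Krt5 in Basal6 than in Basal1 (310 ± 246 CPM). Basal2 stood at 274 ± 96.8, Basal5 at 163 ± 56.2, Basal7 at 81.8 ± 54.3 and Basal8 at 54.6 ± 24.97 CPM. A Krt5 UMI was found in 80.9% of thinned Basal3 cells, 79.1% of Basal4 and 64.7% of Basal6 cells, and in 9.83% of Basal8 cells. Basal1, next to Basal6 by level, had it in 25.3% of cells, fewer than Basal2 (37.4%) and Basal5 (33.1%), so its Krt5 was held by fewer cells.

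Krt14 parted from Krt5. It was high in Basal4 (1639 ± 698 CPM, n = 4), Basal1 (1299 ± 940, n = 6), Basal7 (804 ± 479, n = 5) and Basal6 (754 ± 316, n = 6), but only 442 ± 172 CPM in Basal3, where Krt5 was near its highest. Basal1 was the least even between mice: Krt14 there was 2196 CPM in WT1, 795 in WT2, 2768 in WT3, 683 in MT1301, 533 in MT1306 and 816 in MT1383. WT1 and WT3 were thus the high mice of Basal1, while WT2 fell among the MIS/MIS mice. Basal4 was above Basal1 in 2 of 4 mice, so which of them ranked first was not settled. Per Krt5 UMI, Basal7 held 11.6 Krt14 UMIs and Basal1 held 3.75, against 0.508 in Basal3 and between 0.857 and 1.097 in each of the other 5 basal clusters.

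Krt15 had the highest mean level of the members in every basal cluster but Basal7. In Basal5 it reached 7122 ± 713 CPM (n = 5), in Basal4 5941 ± 2200 (n = 4), in Basal3 5876 ± 731 (n = 6), in Basal8 5485 ± 723 (n = 5), in Basal6 4198 ± 672 (n = 6) and in Basal2 3703 ± 680 (n = 6). Basal1 (1956 ± 563, n = 6) and Basal7 (587 ± 396, n = 5) were the low clusters, and in Basal7 Krt14 was above Krt15 on average. Among basal clusters Basal8 had the most Krt15 per type II partner, with 131 Krt15 UMIs per Krt5 UMI, against 50.5 in Basal5 and 4.67 in Basal4. Over the 8 basal clusters, on log2(CPM + 1) of means that share the same libraries, Pearson's r was −0.39 between Krt14 and Krt15 and 0.64 between Krt14 and Krt5.

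In single cells the type I keratins did not exclude each other. After thinning, a Krt14 UMI without a Krt15 UMI was seen in 20.6% of Basal1 cells and 26.1% of Basal7 cells, and in at most 2.56% of the cells of any other basal cluster. In Basal1 this share lay between 10.2% (MT1306) and 40.4% (WT1) over the 6 mice. In Basal1, 60.6% of cells with Krt14 and 60.3% of cells without it held Krt15, and in Basal7 the shares were 38.7% and 29.4% and in Basal4 94.0% and 81.2%. The cells with Krt14 alone thus lie in the clusters of low Krt15. Krt5 and Krt14 were found together more: in Basal1, 77.5% of cells with a Krt5 UMI also held Krt14, against 43.7% of those without, and in Basal2 the shares were 47.9% and 6.40%. No test was made of these shares.

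**Figure D2:**
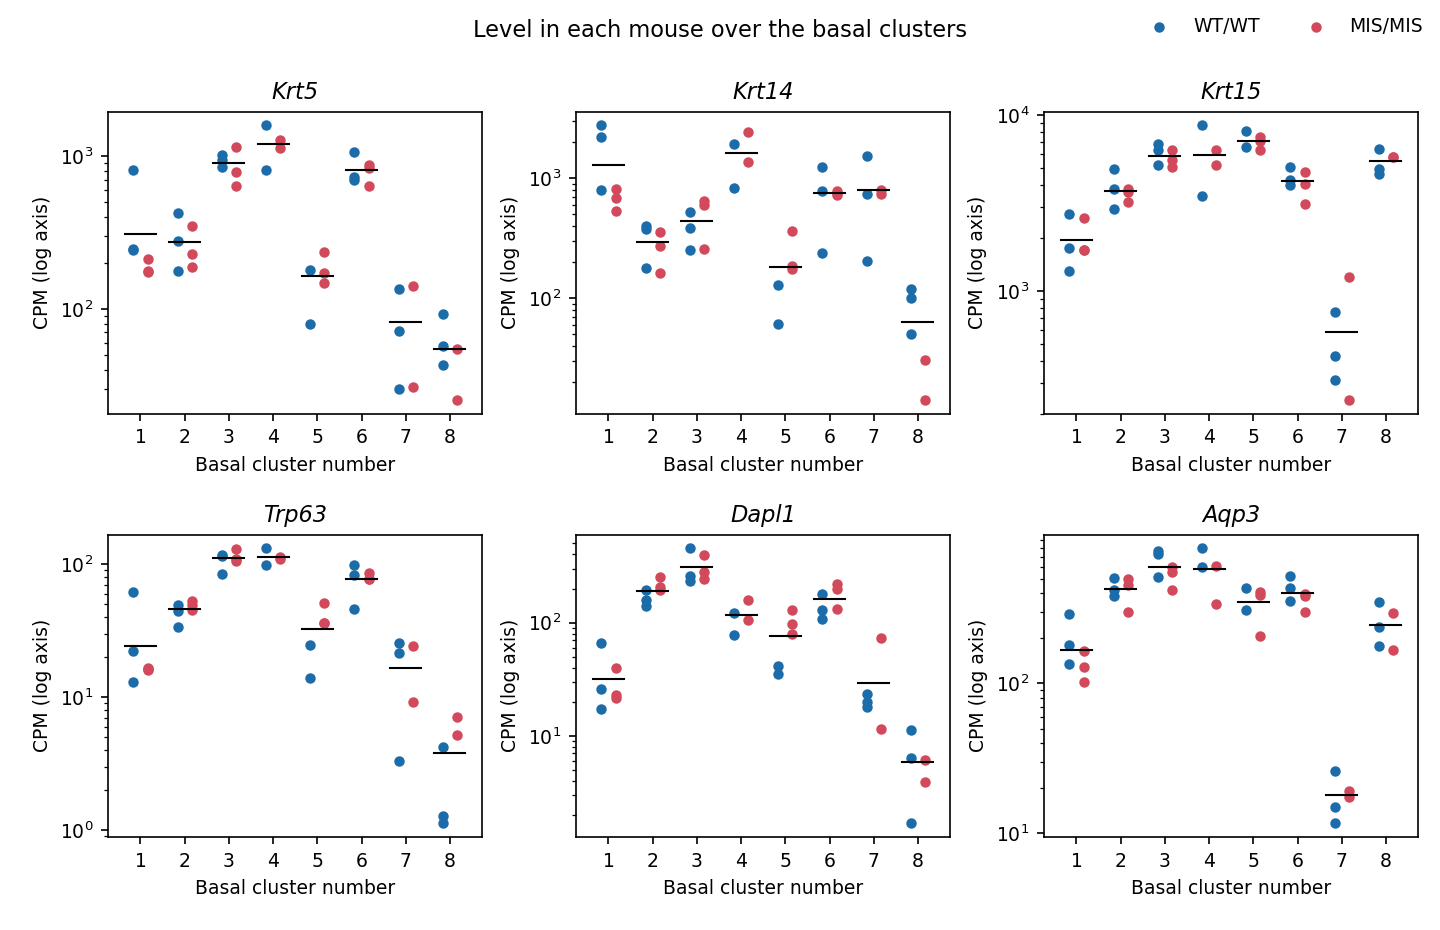
CPM (log axis) of 6 members in each mouse over Basal1 to Basal8, with 1 point per mouse of at least 20 cells, WT/WT in blue and MIS/MIS in red, and a black bar at the mean. Krt5, Trp63 and Dapl1 are lower in Basal8 than in Basal3 in every mouse drawn, Krt15 dips in Basal1 and Basal7, and Aqp3 drops to 11.7 to 26.0 CPM in Basal7 in every mouse drawn.

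The regulators Trp63 and Snai2 followed Krt5 more closely than Krt14. Trp63 was highest in Basal4 (113 ± 13.6 CPM, n = 4) and Basal3 (111 ± 15.1, n = 6), which did not differ beyond their spread. Then came Basal6 at 78.2 ± 17.6, below Basal3 in 6 of 6 mice, and Basal2 at 45.9 ± 6.68, below Basal6 in 6 of 6 mice. Snai2 was 61.3 ± 7.16 CPM in Basal3, 42.2 ± 15.6 in Basal4 and 39.4 ± 16.7 in Basal6, and at most 17.98 CPM in the other basal clusters. Over the 8 basal clusters r was 0.94 between Krt5 and Trp63, 0.93 between Krt5 and Snai2, and 0.95 between Trp63 and Snai2.

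The surface proteins Ngfr and Dlk2, both low transcripts, were highest in Basal3 in all 6 mice, over clusters of at least 20 cells. Ngfr was 28.3 ± 7.65 CPM in Basal3 and 20.9 ± 6.34 in Basal6, lower there in 6 of 6 mice, and at most 14.9 CPM elsewhere among basal clusters. Dlk2 was 72.2 ± 15.5 CPM in Basal3, against 30.6 ± 9.19 in Basal6 and 25.5 ± 10.4 in Basal4. Basal3 was above Basal6 for Dlk2 in 6 of 6 mice. In Basal1, Dlk2 was only 2.58 ± 1.73 CPM, although Krt14 was high there and Snai2 was at 17.98 CPM. In thinned Basal3 cells, 11.7% held a Ngfr UMI and 26.7% a Dlk2 UMI.

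Dapl1 and Aqp3 had their own orders. Dapl1 was 311 ± 90.9 CPM in Basal3, 191 ± 40.0 in Basal2, 161 ± 44.3 in Basal6 and 116 ± 33.7 in Basal4. Basal2 thus ranked second for Dapl1, while for Krt5 its mean was below those of Basal4, Basal3, Basal6 and Basal1, although Basal1 was above it in only 2 of 6 mice. Basal1 (32.1 ± 18.1), Basal7 (29.0 ± 24.6) and Basal8 (5.86 ± 3.55) were low. Aqp3 was 600 ± 131 CPM in Basal3, 585 ± 186 in Basal4 and between 246 and 427 in Basal2, Basal5, Basal6 and Basal8, and it fell to 17.9 ± 5.36 CPM in Basal7. Within the 8 basal clusters Aqp3 went with Krt15 (r = 0.93) and not with Krt14 (r = −0.13).

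Genes of the fixed lists gave the clusters a further description. Basal6 held the cycling genes, with Mki67 at 232 and Top2a at 390 CPM against at most 1.91 CPM of Top2a in the other basal clusters, and it kept Krt5, Trp63 and Ngfr at the levels given above. Basal4 held the suprabasal keratins Krt13 (7144 CPM) and Krt4 (3967 CPM) beside its high Krt5 and Krt14. Basal1 had the highest Krt17 (1217 CPM), followed by Basal7 (1006 CPM). Of the fibroblast genes, Dcn was at 55.3, 59.0 and 53.4 CPM in Basal2, Basal3 and Basal6, while Col1a1 (20.5 CPM) and Col3a1 (4.62 CPM) were highest in Basal1, and the immune gene Ptprc was at or near 0 in every cluster. Basal7 had Lyz2 at 2949 CPM, which is also high in Multiciliated1 (2835 CPM), Secretory1 (2040 CPM) and Multiciliated3 (1172 CPM).

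For each member, the 3 genes with the most similar level over 15 clusters were sought among 11561 genes of at least 10 CPM in some cluster, by Pearson's r on log2(CPM + 1). The clusters share libraries and the basal against non-basal contrast, and r carries no p. Krt5 was closest to Col17a1 (r = 0.98), the hemidesmosomal collagen, then to Bnc1 and Wnt10a. Trp63 and Snai2 shared with it Col17a1 and Wnt10a and were among each other's 3 closest genes. Krt14 had a list of its own, led by Krt17 (r = 0.96) of the same keratin cluster, with Tpm2 (0.95), a tropomyosin, and Tns4 (0.94), a focal adhesion protein. Krt15 and Aqp3 were in each other's lists (r = 0.96). The other genes most like Krt15 were Hspb1 and Upk3bl, and those most like Aqp3 were Sh3rf2 and Ltbp4. Ngfr was closest to Trp63 (0.96), Wnt10a and Bnc1, and Dlk2 to Ngfr (0.94), Trp63 and Zfp326. Dapl1 had the loosest matches, Inka1 (0.91), Slc12a4 (0.90) and Ptn (0.89).

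Outside the basal clusters the members fell by very different amounts. As the geometric mean over 6 mice of the fold between basal and secretory cells of the same mouse, Krt14 was 74.7-fold higher in basal cells (39.2 to 146 over mice). Snai2 was 19.5-fold, Dlk2 18.1-fold, Krt5 14.9-fold and Trp63 11.4-fold higher. Ngfr was 5.68-fold and Dapl1 5.18-fold higher, while Aqp3 was 2.67-fold (1.98 to 4.03) and Krt15 only 2.06-fold higher (1.22 to 3.24). Against multiciliated cells the fold was 39.0 for Krt5, 47.0 for Krt14, 11.6 for Aqp3, 5.45 for Krt15 and 5.13 for Dapl1. It was 38.0 for Snai2, 36.2 for Dlk2, 34.9 for Ngfr and 22.0 for Trp63. The folds of all 9 members were above 1 in every mouse. Those of Krt14, and of Krt5 against multiciliated cells, are set against classes where few cells held the gene. Their thinned shares were near those of the background cells described below. Levels were not as near: over pooled multiciliated cells Krt5 was 11.7 and Krt14 14.6 CPM, against 4.01 and 6.02 CPM in neuroendocrine cells. The folds of Snai2, Dlk2, Ngfr and Trp63 against multiciliated cells are set against 0.383 to 2.61 CPM. Against secretory cells, the folds of Snai2, Dlk2 and Ngfr are likewise set against low levels, 1.48, 1.34 and 2.24 CPM. None of these folds carries a rank. All folds describe annotated classes, which the same genes helped to define.

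The pair of secretory clusters differed sharply in what they kept. Secretory2 had Krt5 at 92.8 ± 38.0 CPM (40.8 to 129 over 6 mice), against 5.93 ± 3.23 in Secretory1 (2.26 to 10.95), and the ranges did not overlap. Trp63 was 12.1 ± 3.04 against 1.66 ± 0.672 CPM and Dapl1 53.2 ± 7.39 against 8.53 ± 2.31, likewise without overlap. Krt14 did not follow: it was 11.05 ± 4.13 CPM in Secretory2 and 9.03 ± 6.26 in Secretory1. Per Krt5 UMI, Secretory2 held 0.118 Trp63 UMIs, beside 0.117 in all basal cells together, and 33.5 Krt15 UMIs, beside their 8.40.

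Free RNA from lysed basal cells can put UMIs into droplets of any cell, so shares were read beside neuroendocrine cells and ionocytes, which should lack these genes. Their median depths were 10351 and 23171 UMIs, against 32690 in secretory and 29360 in multiciliated cells, and all were thinned to the same 5000. Krt5 was found in 2.45% of thinned neuroendocrine cells and 3.57% of ionocytes, and Krt14 in 3.68% and 3.57%. Such shares rest on few cells: before thinning, 8 neuroendocrine cells and 2 ionocytes held Krt5, and 12 and 3 held Krt14. Both cell types came mostly from MT1383, which gave 108 of the 163 neuroendocrine cells and 19 of the 28 ionocytes. MT1383 had the lowest Krt5 in basal cells. Within MT1383 alone, Krt5 was in 0.926% of neuroendocrine, 1.34% of Secretory1, 1.43% of Multiciliated3 and 17.3% of Secretory2 cells. Secretory1 (2.02% for Krt5 and 2.18% for Krt14) and Multiciliated3 (2.18% and 3.06%) were at or near that background, and so was Krt14 in Secretory2 (3.10%). Their counts were therefore not read as expression, but they were not shown to be background either. Thinning evens the depth and not the part of free RNA, which can be larger in droplets of few UMIs. Before thinning, Krt5 was seen in 9.65% of Secretory1, 7.49% of Multiciliated3 and 4.91% of neuroendocrine cells. Krt5 in Secretory2 (20.6%), and Krt15 in Secretory1 (80.4%), Secretory2 (91.7%) and Multiciliated1 (80.4%), were far above the background, which for Krt15 was 25.8% in neuroendocrine cells and 17.9% in ionocytes. That Krt15 background was uneven: 29 of the 58 UMIs of ionocytes lay in 1 cell. In neuroendocrine cells, 44.5% of 339 lay in the 1% of cells with the most.

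Multiciliated clusters differed in the members they held. Krt15 was 2315 ± 406 CPM in Multiciliated1, above Secretory1, 613 ± 162 in Multiciliated2, 120 ± 57.3 in Multiciliated3 and 64.5 ± 35.3 in Multiciliated4. In Multiciliated3, the cluster with the highest Dnah5 (657 CPM), the 20.2% of cells with Krt15 was between the 17.9% and 25.8% of the background cells. Aqp3 had the same order, with 76.0 ± 21.4 CPM in Multiciliated1 and 13.5 ± 3.37 in Multiciliated3. Dapl1 had another: it was 23.8 ± 6.41 CPM in Multiciliated1, 51.2 ± 13.6 in Multiciliated2 and 12.9 ± 7.79 in Multiciliated3. Multiciliated2 is the cluster with the centriole amplification genes Deup1 (358 CPM), Ccno (451 CPM) and Mcidas (147 CPM). In it, Dapl1 ran from 37.1 CPM in MT1306 to 70.9 in WT2, and in each of the 6 mice it was above that mouse's Multiciliated1 and Multiciliated3 levels. Of thinned Multiciliated2 cells, 19.0% held Dapl1, against 2.80% with Krt5 and 2.22% with Krt14. Before thinning, Dapl1 was in 426 of 857 Multiciliated2 cells, 5 of 163 neuroendocrine cells and 8 of 28 ionocytes. The 12.3% of Multiciliated2 cells over the authors' limit of 7500 genes held 26.4% of its Dapl1 UMIs.

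The few Krt5 and Krt14 UMIs of multiciliated cells were held by few cells. Of 1750 Krt5 UMIs in the 4823 multiciliated cells, 63.6% lay in the 1% of cells with the most, and 315 of the 448 cells with any had a single UMI. For Krt14, 73.8% of 2189 UMIs lay in the top 1% of cells. Cells over 7500 genes, the authors' stated limit against doublets, were 6.12% of multiciliated cells and held 34.3% of the Krt5 and 29.3% of the Krt14 UMIs, but 10.9% of the Krt15 UMIs. In basal cells the top 1% held 11.2% of the Krt5 UMIs.

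For the comparison of genotypes, UMIs were summed per mouse over all cells of a class and tested with limma voom across all genes, MIS/MIS against WT/WT, with 3 mice each and Benjamini-Hochberg adjustment. No member passed an adjusted p of 0.05 in any class. In basal cells 0 of 14615 genes passed (0%), and 334 had an unadjusted p under 0.05 (2.29%). A second limma method, limma-trend, also called 0 and had 337. In secretory cells 1 gene of 13610 passed (0.00735%) and in multiciliated cells 1 of 14206 (0.00704%). That gene was Wdfy1 in both and is no member. A low count of calls with 3 mice a group does not show that the members' levels were equal.

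In basal cells the log2 fold changes of Krt5 and Krt14 were close to each other and that of Krt15 was near 0, with no test between the genes. Krt5 was 564, 471 and 806 CPM in WT1, WT2 and WT3 and 447, 408 and 253 CPM in MT1301, MT1306 and MT1383. The lowest WT/WT mouse was just above the highest MIS/MIS mouse, so the groups did not overlap. The log2 fold change was −0.79 ± 0.27 (SE; 95% interval −1.44 to −0.15), with an adjusted p of 0.9999 and an unadjusted p of 0.0229 by limma voom. Krt5 was the 1 member of 9 whose mice did not overlap in that direction, against 1.89% of all genes. Krt14 was 718, 485 and 1400 CPM in the WT/WT mice and 552, 438 and 402 CPM in the MIS/MIS mice. WT3 alone was over 1000, and the groups overlapped (log2 fold change −0.83 ± 0.36, interval −1.70 to 0.041). Krt15 was 4117, 3951 and 4542 CPM against 3763, 4835 and 3733, so the levels were mixed and the log2 fold change was −0.10 ± 0.12 (interval −0.39 to 0.20).

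The size of the Krt5 value in basal cells depended on the cells taken. Its log2 fold change was −0.42 ± 0.37 without Basal4 cells, and −0.40 ± 0.16 when each mouse gave the same number of cells from Basal1, Basal2, Basal3 and Basal6 and the other clusters were left out. Basal4 made up 57.1%, 0.105% and 11.02% of the basal cells of WT1, WT2 and WT3, and 0.0550%, 9.64% and 1.02% of those of the MIS/MIS mice. Without MT1383, the library with most of the cells of Basal2 and Basal5, it was −0.53, and without WT2 it was −0.97. The Krt14 value went to −0.44 without WT3 and to −1.47 in Basal1 alone. For Krt5 in Basal1 alone the log2 fold change was −1.01, with 242, 246 and 809 CPM in the WT/WT mice against 213, 174 and 178 CPM in the MIS/MIS mice. Cluster by cluster the mean of Krt5 was lower in MIS/MIS mice in 5 of 8 basal clusters, and the mice did not overlap in Basal1 alone. The other direction was seen in Basal5, with 2 WT/WT and 3 MIS/MIS mice. There Krt14, Trp63, Ngfr, Dapl1, Snai2 and Dlk2 were higher in MIS/MIS mice without overlap. So were Trp63 in Basal8 and Ngfr and Snai2 in Basal4, while Krt14 in Basal8 was lower. Basal4 rested on 2 mice of each genotype and Basal8 on 3 WT/WT and 2 MIS/MIS mice. The share of all genes without overlap was not worked out for single clusters, here or in the paragraphs below. Lack of overlap within a cluster is therefore given as a description and not read as a genotype difference. In Basal3, the cluster of highest Dlk2 and Snai2, Krt5 was 1026, 847 and 946 CPM against 783, 642 and 1151, with overlap.

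None of the remaining members passed the test. Aqp3 in basal cells was 609, 312 and 458 CPM in the WT/WT and 342, 261 and 374 CPM in the MIS/MIS mice (log2 fold change −0.52 ± 0.28). Trp63 gave −0.30 ± 0.25, and 0.09 without Basal4 cells. Snai2 gave −0.09 ± 0.33, Ngfr 0.06 ± 0.25, Dapl1 0.26 ± 0.14 and Dlk2 0.31 ± 0.24. The 95% interval for Trp63, −0.88 to 0.29, leaves room for a change in either direction.

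**Figure D3:**
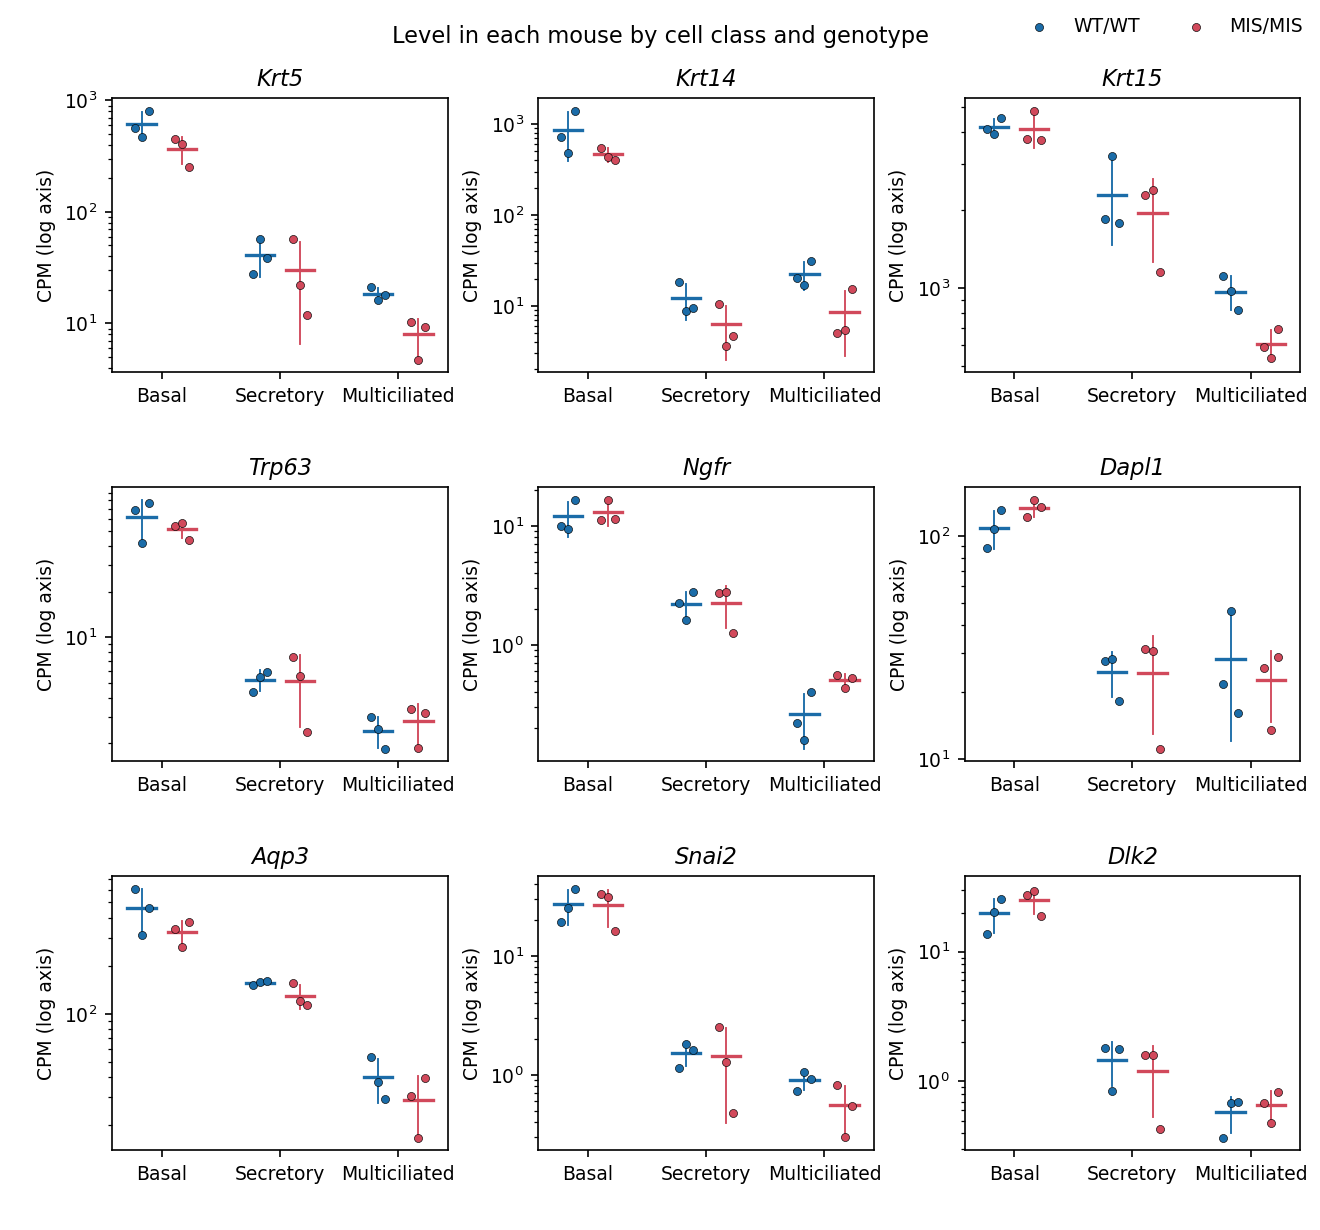
CPM (log axis) of each member in basal, secretory and multiciliated cells, with 1 point per mouse (WT/WT blue, MIS/MIS red), a bar at the mean and a line of ± 1 SD (n = 3 per genotype). In basal cells only Krt5 has WT/WT mice that are all above the MIS/MIS mice, and in multiciliated cells Krt5, Krt14 and Krt15 do.

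Secretory cells gave no clear difference in any member. Krt5 was 27.6, 57.4 and 39.0 CPM in the WT/WT mice and 57.2, 21.9 and 11.8 CPM in the MIS/MIS mice, so that MT1301 matched the highest WT/WT mouse (log2 fold change −0.66 ± 0.54). MT1383, the lowest, had 11.2% of its secretory cells in Secretory2, against 32.8% to 52.8% in the other 5 mice, and without it the log2 fold change was −0.17, against −0.36 without WT2 and −1.31 without MT1301. Aqp3 was 151, 158 and 160 CPM against 155, 120 and 113 CPM (−0.29 ± 0.12, unadjusted p = 0.0434, adjusted p = 0.9997 by limma voom). It was the 1 member of 9 with an unadjusted p under 0.05, against 1.90% of all genes. Within Secretory1, Aqp3 was 125, 122 and 121 CPM against 109, 82.9 and 101 CPM, without overlap. Over the whole class the genotypes overlapped for all 9 members, and 2.57% of all genes were lower in MIS/MIS mice without overlap.

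In multiciliated cells the 3 keratins were lower in MIS/MIS mice without overlap, though none passed the adjusted p. Krt15 was 1109, 973 and 818 CPM in WT1, WT2 and WT3 and 592, 534 and 691 CPM in MT1301, MT1306 and MT1383. Every WT/WT mouse was above every MIS/MIS mouse. The log2 fold change was −0.70 ± 0.14 (interval −1.03 to −0.38), with an unadjusted p of 0.00117 and an adjusted p of 0.896 by limma voom. Krt5 was 21.1, 16.3 and 18.1 CPM against 10.3, 4.71 and 9.23 CPM (−1.21 ± 0.25, unadjusted p = 0.00129). Krt14 was 20.04, 16.8 and 31.04 CPM against 5.08, 5.45 and 15.3 CPM (−1.33 ± 0.42, unadjusted p = 0.0138). Thus 3 of the 8 members tested there were lower in MIS/MIS mice without overlap, where 3.19% of all genes were, and the same 3 had an unadjusted p under 0.05, where 4.32% of all genes did. These Krt5 and Krt14 values belong to a class where both genes were found in about as few cells as in the background cells above (2.99% and 2.88% of thinned cells). Ngfr was under the count limit in this class. Trp63 (0.22 ± 0.30) and Dlk2 (0.18 ± 0.37) had log2 fold changes above 0, and Dapl1 (−0.24 ± 0.41), Aqp3 (−0.47 ± 0.33) and Snai2 (−0.83 ± 0.38) below it.

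Other values of the same cells are given beside these differences, and their part in them was not tested. The shares of cells over 7500 genes and of Multiciliated1 cells overlapped between the genotypes. Cells over 7500 genes were 16.6%, 5.50% and 11.3% of the multiciliated cells of the WT/WT mice and 8.27%, 10.1% and 1.72% of those of the MIS/MIS mice. Without those cells the log2 fold change was −0.78 ± 0.43 for Krt5 and −0.68 ± 0.46 for Krt14, and −0.71 ± 0.12 for Krt15. Without MT1383, that of Krt14 was −2.07. Multiciliated1, the multiciliated cluster with the highest Krt15, was 24.7%, 21.3% and 21.8% of the multiciliated cells of WT/WT mice and 17.3%, 13.4% and 28.0% of those of MIS/MIS mice. With equal numbers of cells per cluster from each mouse, Krt15 gave −0.37 ± 0.11. Within Multiciliated1, Krt15 was 2912, 2413 and 2475 CPM against 1931, 2376 and 1784 CPM, without overlap but with WT2 and MT1306 close together. Within Multiciliated3 it was 206, 179 and 87.7 CPM against 74.9, 78.8 and 92.1, with overlap. Of the suprabasal genes, 7 of 7 tested had log2 fold changes below 0 (median −1.14, against 0.0066 over all genes) and Krt13 was at −2.74, with none past the adjusted p. The part of these genes in the result was not tested.

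**Figure D4:**
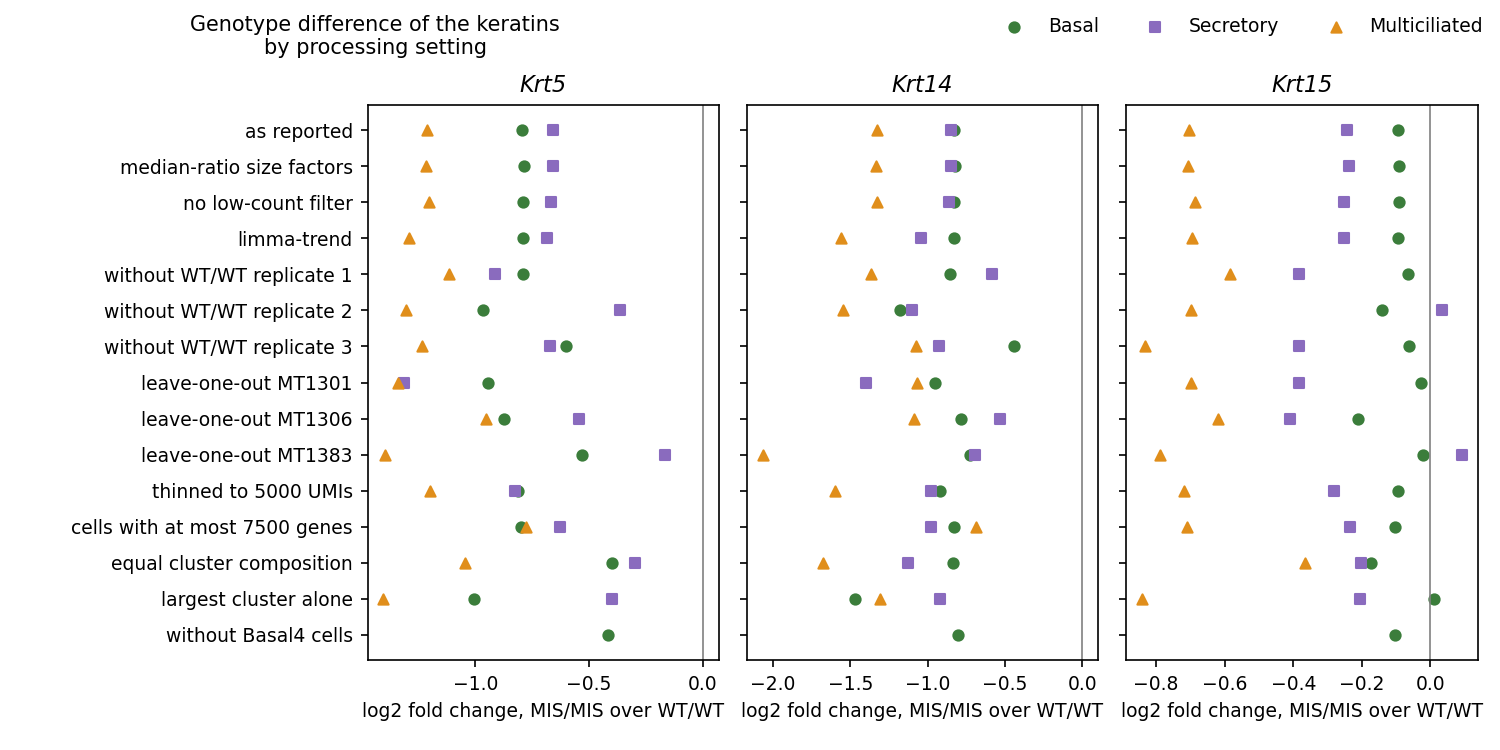
Log2 fold change of MIS/MIS over WT/WT mice for Krt5, Krt14 and Krt15 in basal (circles), secretory (squares) and multiciliated cells (triangles) under each processing setting; values left of the grey line are lower in MIS/MIS mice. Krt5 and Krt14 stay left of 0 in all 3 classes, and Krt15 in basal and secretory cells lies near 0 and crosses it.

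Whether a genotype difference was larger in one class than in another was tested in a model over the basal, secretory and multiciliated sums together, with the mouse as a block. No gene of 15942 passed for secretory against basal cells (0%; 560 with an unadjusted p under 0.05) or for multiciliated against basal cells (0%; 703), and no second tool was run for these. For Krt15 the log2 fold change in multiciliated cells minus that in basal cells was −0.60 ± 0.35 (adjusted p = 0.978 by limma voom). The difference of differences was −0.32 ± 0.64 for Krt5 and −0.43 ± 0.57 for Krt14. No difference between classes was thus shown for the members.

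Other genes of basal cells were taken from lists of the genes that anchor, join and signal to them. None of the 47 tested in basal cells passed the adjusted p, 30 had log2 fold changes below 0 and 17 above, and their median was −0.13, against −0.0069 over all genes. The hemidesmosome and basement membrane genes were divided (6 below and 4 above 0, median −0.06), with Col17a1, the gene most like Krt5, at −0.47 ± 0.37. All 8 desmosome and junction genes had log2 fold changes below 0, none past the adjusted p (median −0.75), among them Dsg3 at −1.17 ± 0.57 and Perp, a p63 target of desmosomes, at −0.77 ± 0.40. Perp and Dsg3 were highest in Basal4, which held 57.1% of the basal cells of WT1: Perp was 937 CPM there and at most 268 CPM in the other basal clusters, and Dsg3 132 CPM against at most 36.3. The part of Basal4 in the values of these genes was not tested. Of the other keratins, 7 of 10 were below 0 (median −0.75), with Krt6b (−3.97 ± 3.31), Krt13 (−2.85 ± 1.95) and Krt6a (−1.88 ± 0.89). Krt13 was between 38.5 and 4712 CPM in the WT/WT mice and between 20.2 and 484 CPM in the MIS/MIS mice. Krt16, a keratin of activated epithelium, ran from 41.5 to 72.3 CPM in WT/WT and from 6.07 to 26.2 CPM in MIS/MIS mice, without overlap (−1.85 ± 0.52, unadjusted p = 0.0104, adjusted p = 0.9999 by limma voom). The 12 Notch, growth factor and neurotrophin genes were mixed (7 above and 5 below 0, median 0.04), with Jag1 at −0.43 ± 0.30 and Notch1 at −0.33 ± 0.13. Of the Delta-like genes and Snail relatives, 3 of 6 were tested and all 3 were below 0. Neither p53 relative passed, with Trp53 at 0.09 and Trp73 at −0.13, nor did Aqp4 (0.12) or Aqp5 (0.32). In secretory cells 13 of the 40 tested were above 0 and in multiciliated cells 12 of 41, and none passed in either class.

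Markers of other cell types were read in the basal cells of each genotype, and none passed the adjusted p. The 5 cycling genes had a median log2 fold change of 0.19, the 9 multiciliated genes 0.17 and the 6 secretory genes tested 0.14. Of the suprabasal list, 6 of 7 were below 0 (median −0.41), as Krt5 was. Among the few tested genes of fibroblasts, immune and endothelial cells, Dcn was at 1.00 ± 0.68 with overlap of the mice, Pdgfra at −0.03, Cd68 at 0.04 and Pecam1 at −0.30. Lyz2, which the epithelium expressed, ran from 48.6 to 455 CPM in WT/WT and from 113 to 142 CPM in MIS/MIS mice. Of the neuroendocrine genes 2 of 4 were tested (median 0.47), of the ionocyte genes 1 of 3 (0.25) and of the tuft genes 2 of 3 (−0.28). The part of these genes in the members' values was not tested.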

How the data were processed

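The authors dissociated ALI cultures, made 3′ droplet libraries on the Chromium platform and processed the reads with Cell Ranger. The submitters' processing notes name version 7.1.0 and mm10, while the paper's methods name another version. The authors filtered cells by mitochondrial share and gene number, and clustered and named them with Seurat. What they deposited are UMI counts, unnormalised, in 1 table of genes by cells, and a cell table with totals and cluster names. Fields in both tables are split by a slash and a letter t where a tab was meant. Read that way, all 23871 cell totals equalled those of the cell table, and 0 cells had an unmapped mouse. Columns of the MIS/MIS mice are named by animal and could not be tied to single titles, so they served as unnumbered replicates of that genotype.

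UMIs were summed per mouse over the basal, secretory or multiciliated clusters and tested with limma 3.58.1 (voom) in R 4.3.3, with TMM factors and genes of at least 10 counts at the median depth in 3 mice and 15 in all. A negative binomial count test had been planned. It was not run, because the separator kept the table from being recorded as counts. No doublet caller was run, and 655 cells over the authors' limit of 7500 genes stayed in the main fits. An alternative left them out. The code was tested on simulated data. Thinned shares use 5000 UMIs per cell, with Python 3.11.15. Intervals cover the spread between mice only.

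The members and gene lists were chosen with earlier results of these data known. Text names the members, at most 4 genes of a list by largest absolute change in basal cells, the 3 genes most like each member, and marker genes that describe a cluster, which were chosen after their values were seen. Sequences are from RefSeq (GRCm38.p6). Alternatives were other size factors, no filter, limma-trend (added after seeing the data), each mouse left out, thinned cells, at most 7500 genes, equal cluster makeup, the largest cluster alone and no Basal4 cells.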

Additional observations from a re-analysis of the deposited data

How the results depend on the processing

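No paired analysis was possible because no label ties a WT/WT mouse to a MIS/MIS mouse. The columns of the MIS/MIS mice also carry no replicate number. The planned edgeR count test and DESeq2 were not run, for the reason given in the processing. Of 364 alternative values of the members' log2 fold changes, 324 kept their direction and none reached an adjusted p of 0.05 by limma voom or limma-trend (the lowest was 0.267). The cause of the changes below was not tested. The number of genes called went to 1 in basal cells with equal cluster composition (Wdfy1), and in multiciliated cells to 2 after thinning, 2 with equal composition and 3 in the largest cluster alone. Leaving out single mice gave 0 genes in secretory cells each time, and 0 to 3 for secretory against basal cells, with 3 without WT2. Log2 fold changes that turned sign in basal cells were, in the largest cluster alone, Krt15 0.0094, Ngfr −0.47, Dapl1 −0.41 and Dlk2 −0.96. With equal composition, Ngfr gave −0.20, Snai2 0.068 and Dlk2 −0.023, without Basal4 cells Trp63 gave 0.090 and Snai2 0.026, and after thinning Ngfr gave −0.074. In secretory cells, equal composition gave Trp63 0.066, Dapl1 0.25, Snai2 0.13 and Dlk2 0.013, and the largest cluster alone 0.31, 0.32, 0.38 and 0.38 for the same genes. Thinning gave Dlk2 0.14 and limma-trend Ngfr −0.028. Leaving out single mice gave ranges that crossed 0 for Ngfr (−0.089 to 0.29) and Snai2 (−0.28 to 0.26) in basal cells. In secretory cells they did for Krt15 (−0.41 to 0.091), Trp63 (−0.56 to 0.31), Ngfr (−0.20 to 0.42), Dapl1 (−0.41 to 0.32), Snai2 (−1.02 to 0.26) and Dlk2 (−0.72 to 0.35). In multiciliated cells they did for Dapl1 (−0.61 to 0.24) and Dlk2 (−0.049 to 0.35), and for multiciliated against basal cells Krt5 ran from −0.78 to 0.012. Thinning to 5000 UMIs lowered the share of basal cells with a UMI for all 9 members, from 60.9% to 47.8% for Krt5 and from 22.7% to 6.22% for Ngfr, so shares of low genes are limited by depth. With cells pooled instead of mice weighted equally, the highest cluster became Basal1 for Krt14, Basal3 for Trp63 and Basal4 for Aqp3.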
